A study of Mus musculus with 8 samples.

Results

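The mitochondrial genome of the mouse carries 13 protein-coding genes, and their messenger RNAs are described here in tuft cells of the small intestine. All 13 were taken whatever their values, from the rows that the count table writes without the mt- prefix (ND1, ND2, ND3, ND4, ND4L, ND5, ND6, CYTB, COX1, COX2, COX3, ATP6 and ATP8), out of 53655 gene symbols in all. The table also holds 2 mitochondrial ribosomal RNA genes and 22 mitochondrial transfer RNA genes, which served for comparison. Tuft cells sense chemical signals in the gut lumen and are a source of the cytokine IL-25 in the epithelium. A subset of them makes acetylcholine through choline acetyltransferase (Chat).

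Cells were sorted as CD45-negative, EPCAM-positive and Il25-RFP-positive, and then split by a green reporter. The cells with green signal (Chat-pos) and those without it (Chat-neg) gave 4 bulk RNA libraries each. Both groups came from naïve mice of 1 genotype, Il25-RFP/+;Chat-GFP(Tg+), so every cell carried an Il25 reporter allele and the Chat reporter transgene, and the labels give no difference between the groups beyond the sort gate. Strain, age, sex, and which animals gave which library are not given in the labels, so the spread behind each p-value is that between libraries, which may be technical.

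Counts in named genes were 1757401 to 2541955 in the Chat-pos libraries and 87642 to 1176880 in the Chat-neg libraries, with no overlap between the groups. Rows with no gene name held 58.6% to 64.6% of all counts in Chat-pos and 67.8% to 88.4% in Chat-neg, also with no overlap. The 10 tuft cell markers summed to 16169 to 16533 counts per 1000000 named-gene counts (CPM) in Chat-pos and 7964 to 13243 CPM in Chat-neg, and none of them was at 0 in all libraries. They include Chat, whose reporter split the groups, and Il25, whose reporter gated both, so this sum is not independent of the sort. The 8 Paneth cell markers summed to 54891 and 30665 CPM in Chat-pos replicates 2 and 3, to 565 and 458 CPM in Chat-pos replicates 1 and 4, and to between 743 and 3527 CPM in Chat-neg, so results are also given without these 2 Paneth-rich libraries. The 8 lymphocyte markers reached 3.15 to 260 CPM in Chat-pos and 170 to 349 CPM in Chat-neg. The ranges of Chat-pos and Chat-neg overlapped for the markers of goblet cells (Chat-pos 286 to 1469 CPM, Chat-neg 502 to 5439 CPM), enterocytes (Chat-pos 31910 to 50779 CPM, Chat-neg 21052 to 46732 CPM), enteroendocrine cells (Chat-pos 1174 to 1761 CPM, Chat-neg 582 to 1634 CPM) and stem cells (Chat-pos 81.8 to 1008 CPM, Chat-neg 68.8 to 846 CPM). In such bulk samples, fewer cells of a type and less RNA per cell cannot be told apart.

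The proteins made from these messages are subunits of the respiratory chain and the ATP synthase, embedded in the inner mitochondrial membrane. The ND genes encode subunits of complex I, the NADH dehydrogenase; CYTB encodes cytochrome b of complex III; COX1, COX2 and COX3 encode the core of complex IV, the cytochrome c oxidase; and ATP6 and ATP8 encode subunits of the ATP synthase, complex V. Both strands of the circular genome are transcribed as long precursors, from which transfer RNAs are cut out to free the messages, and messages of the same strand can come to differ in level through processing and decay. ND6 is the single message made from the other strand. Stretches of mitochondrial DNA have also been copied into the nuclear chromosomes over evolutionary time, and reads of a mitochondrial message can then match a nuclear pseudogene equally well.

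Such copies limit how these counts can be read, so 2 pairs of sequences are printed first, each as long as 1 read of 74 cycles. The first pair comes from COX2, whose counts were close to 0, and from its copy Gm28661 on chromosome 1, at the middle of the gene. The second pair comes from CYTB, the member with the highest total count, and from its copy Gm11410 on chromosome 4. Capitals mark the bases that differ within a pair. COX2 lies at MT:7318-7391 on the plus strand, Gm28661 at chr1:24615187-24615260 on the minus strand, CYTB at MT:14680-14753 on the plus strand and Gm11410 at chr4:80004524-80004597 on the plus strand, all read from GENCODE M21 transcripts on GRCm38.
COX2: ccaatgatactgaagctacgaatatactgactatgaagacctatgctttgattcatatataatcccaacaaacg
Gm28661: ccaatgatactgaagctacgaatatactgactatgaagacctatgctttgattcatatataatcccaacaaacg
CYTB: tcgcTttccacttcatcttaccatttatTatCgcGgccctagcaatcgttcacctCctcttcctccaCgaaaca
Gm11410: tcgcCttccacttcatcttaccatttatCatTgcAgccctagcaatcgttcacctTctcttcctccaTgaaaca
The COX2 stretch and its copy were identical, with 0 mismatches in 74 bases, whereas the CYTB stretch and its copy had 6 mismatches in 74 bases.

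The 13 messages fell into 2 ranges of counts, far apart. ND1, ND2, ND4, ND5, ND6, CYTB and COX1 had between 15839 and 286932 counts each over the 8 libraries and never fewer than 191 in a library. The other 6 had 154 (ND3), 99 (COX2), 69 (COX3), 44 (ATP6), 3 (ND4L) and 2 (ATP8) counts over all 8 libraries, and no more than 33 in any library. These 6 together held 371 of the 812679 counts on mitochondrial messages, or 0.0457%. Per kb of gene, the 8 libraries summed to 250815 counts for CYTB, 144761 for COX1 and 22015 for ND5, and to 443 for ND3, 145 for COX2, 88.0 for COX3, 64.6 for ATP6, 10.1 for ND4L and 9.80 for ATP8.

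**Figure D1:**
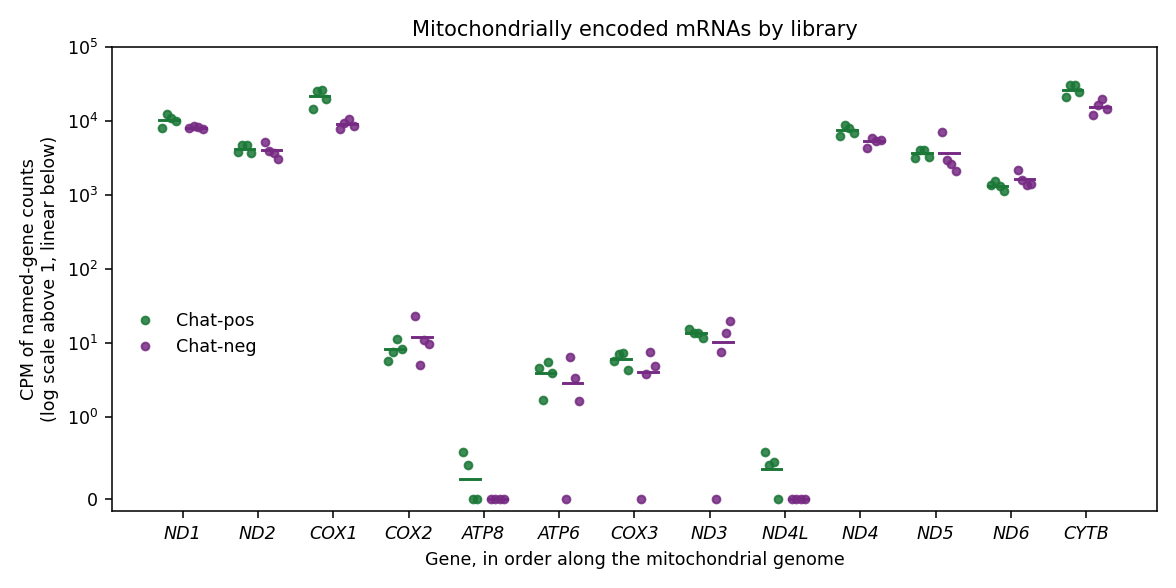
Counts per 1000000 named-gene counts (vertical axis, log scale above 1 and linear below) of the 13 messages, in order along the mitochondrial genome, with 1 point per library and a bar at the mean of 4 libraries for Chat-pos (left) and Chat-neg (right). The 7 abundant messages lie above 1000 CPM in every library, while ND3, COX2, COX3, ATP6, ND4L and ATP8 lie below 25 CPM in every library.

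The low members sit together on the genome. From COX2 to ND4L, between position 7013 and position 10173 of the mitochondrial chromosome (GRCm38.p6, RefSeq), every message was low. The flanking genes COX1 (5328 to 6872) and ND4 (10167 to 11544) were high. ND1 (2751 to 3707), ND2 (3914 to 4951), ND5 (11742 to 13565), ND6 (13552 to 14070, minus strand) and CYTB (14145 to 15288) complete the map. Neighbours overlap by 7 bases for ND4 and ND4L, 14 bases for ND5 and ND6, 1 base for COX3 and ATP6 and 43 bases for ATP6 and ATP8. A read inside such an overlap matches both genes, and these libraries do not mark strand.

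That run of low genes has an annotated copy on chromosome 1. A search of 141730 GENCODE transcripts for the 13 messages found 7 unprocessed pseudogenes side by side on the minus strand at chr1:24611535-24616197, a span of 4663 bases. Gm28661 matched COX2, Gm10925 matched ATP6, Gm28437 matched COX3 and Gm10222 matched ND4L with 100% identity over nearly the whole gene. Gm28438 matched ND3 with 1 mismatch in 345 bases. At the ends of the block, Gm29216 matched bases 1063 to 1545 of COX1 with 99.793% identity, and Gm28439 matched bases 1 to 876 of ND4 with 100% identity. No annotated copy of ATP8 was found. The block leaves 233 bases between the copies of COX2 and ATP6, where the mitochondrial genome has 230 bases between the genes themselves. Only annotated transcripts were searched.

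Windows of 74 bases, the length of a read, give the share of each message that an identical nuclear copy covers. That share was 99.9% for COX3, 99.5% for COX2, 99.5% for ATP6, 98.7% for ND4L and 97.8% for ND3, and 0% for ATP8. Among the abundant messages it was 61.5% for ND4, 40.3% for COX1, 5.80% for ND2 and 1.77% for ND5, and 0% for ND1, ND6 and CYTB. The 5 messages with more than 97% of their windows covered were all low, and of the 8 others only ATP8, the shortest at 204 bases, was low. How reads matching several places were counted is not given in the sources used here, and the part of the copies in these counts was not tested. The counts of the 6 low members are given as deposited, and no level of those messages is read from them. With 2 mismatches allowed, 83.1% of the COX1 windows matched a nuclear copy, 22.0% of those of ND6, 19.8% of those of ND2, 19.8% of those of ND5 and 4.30% of those of CYTB.

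**Figure D2:**
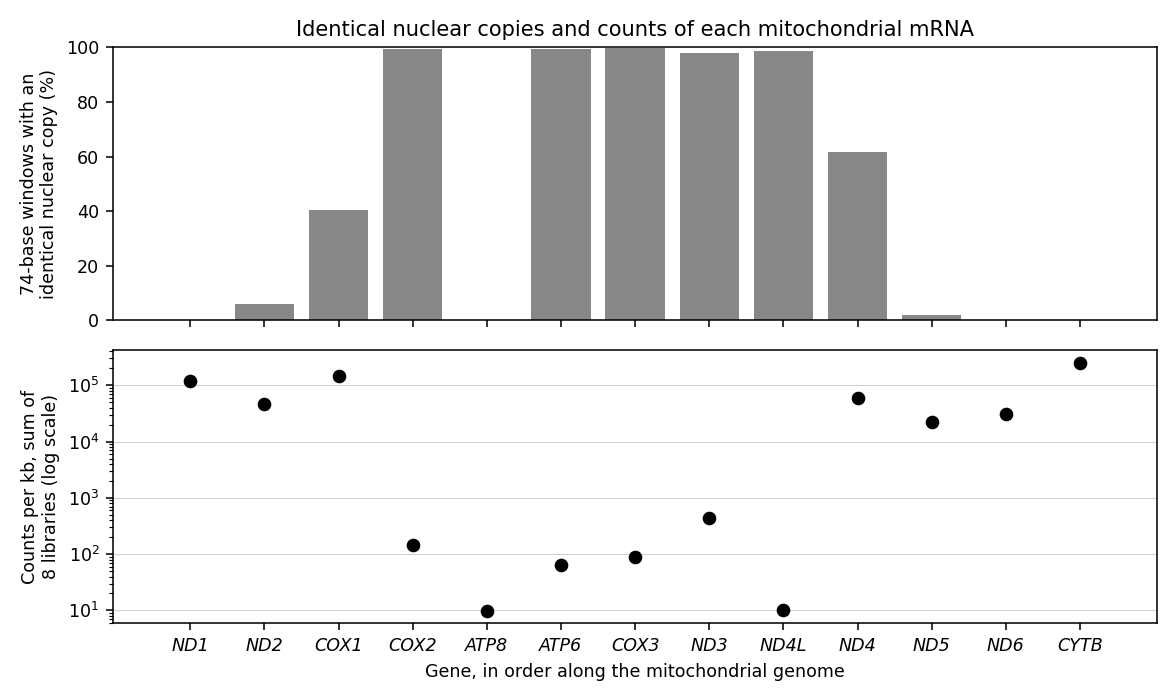
Share of 74-base windows with an identical annotated nuclear copy (upper panel, percent) and counts per kb summed over the 8 libraries (lower panel, log scale) for the 13 messages, in order along the mitochondrial genome. COX2, ATP6, COX3, ND3 and ND4L combine shares of 97.8% to 99.9% with 10.1 to 443 counts per kb, and ATP8 has a share of 0% with 9.80 counts per kb.

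The 7 chromosome 1 pseudogenes themselves held 3233 counts over all libraries, of which Gm28437 had 2119, Gm28661 had 542, Gm29216 had 323 and Gm10925 had 199. The block summed to 800, 465, 336 and 685 counts in Chat-pos replicates 1 to 4 and to 6, 214, 622 and 105 counts in Chat-neg replicates 1 to 4. The copies of COX3, COX2 and ATP6 thus held more counts than the mitochondrial genes that they copy. Gm29216 had 283 of its 323 counts in Chat-pos replicate 1. A second copy of the whole of COX1, Gm13340 on chromosome 2, was 97.605% identical and held 239 counts, and Gm11410, the copy of CYTB, was 92.907% identical and held 44.

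Over all 13 messages, mitochondrial mRNA took a larger share of the named-gene counts in Chat-pos. It came to 5.85%, 8.86%, 8.65% and 7.02% in Chat-pos replicates 1 to 4, against 4.72%, 4.90%, 5.22% and 4.33% in Chat-neg replicates 1 to 4. The groups did not overlap, with means of 7.59% ± 1.42 in Chat-pos and 4.79% ± 0.373 in Chat-neg (SD, n = 4 each). Of all genes tested, 6.37% did not overlap in this direction. By mean CPM the sum was led by COX1 (21873 in Chat-pos, 9160 in Chat-neg) and CYTB (26837, 15737). Among the other abundant members, ND1, ND2 and ND4 were higher by less. ND5 (3673, 3743) and ND6 (1348, 1637) had lower means in Chat-pos. The 2 highest shares were those of the Paneth-rich libraries, and the other 2 Chat-pos libraries also lay above every Chat-neg library. With the rows lacking a gene name in the denominator, the means were 2.86% ± 0.532 in Chat-pos and 1.18% ± 0.469 in Chat-neg.

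Among the members tested, the largest difference was in a catalytic subunit of complex IV. COX1, which encodes the subunit that holds the oxygen-reducing centre, stood at 14537, 25970, 26657 and 20327 CPM in Chat-pos replicates 1 to 4, against 7827, 9426, 10838 and 8550 CPM in Chat-neg replicates 1 to 4. The lowest Chat-pos library was above the highest Chat-neg library, and both Paneth-rich libraries were at the top of Chat-pos. The means were 21873 ± 5653 CPM in the Chat-pos libraries, against 9160 ± 1295 CPM in those of Chat-neg (SD, n = 4 each). COX1 rose by 1.34 ± 0.22 (SE) on the log2 scale, a fold of 2.53, with an adjusted p of 0.00028 (edgeR's quasi-likelihood test, Benjamini-Hochberg over 8919 genes).

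Of the 13 members, 9 passed the filter on low counts, 2 rose and 0 fell, where 3.62% of all 8919 genes tested rose and 2.87% fell, 6.49% in all (edgeR, adjusted p under 0.05). At an unadjusted p under 0.05 in edgeR, 4 members were higher and 0 lower, where 974 of all 8919 genes tested were higher and 881 lower. ND4L, COX3, ATP6 and ATP8 did not pass the filter. Without the Paneth-rich libraries COX1 kept its call (1.14 ± 0.28, edgeR adjusted p = 0.0164) and was the single member that rose. The median log2 difference was 0.42 over the 7 abundant members, 0.21 over the 9 members tested, which is the value of the sparsely counted ND3, and -0.02 over all genes tested.

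Cytochrome b of complex III was the other member that rose. CYTB stood at 21201, 30697, 30608 and 24844 CPM in Chat-pos replicates 1 to 4, against 12049, 16467, 19790 and 14641 CPM in Chat-neg replicates 1 to 4. The groups did not overlap, and the gap between the lowest Chat-pos and the highest Chat-neg library was small. The means were 26837 ± 4650 CPM in the Chat-pos libraries, against 15737 ± 3254 CPM in those of Chat-neg (SD, n = 4 each), and the log2 difference was 0.85 ± 0.21 (edgeR adjusted p = 0.0106). The call was lost without the Paneth-rich libraries (0.76, edgeR adjusted p = 0.139), and singly without Chat-pos replicate 2 (adjusted p = 0.0524), Chat-neg replicate 2 (0.0735) or Chat-neg replicate 4 (0.0584). With every library thinned to 87642 counts, the total of the shallowest, COX1 (1.12 ± 0.17, edgeR adjusted p = 4.42e-05) and CYTB (0.68 ± 0.15, edgeR adjusted p = 0.00157) both rose.

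The complex I members differed among themselves. ND4 stood at 6314, 8778, 8054 and 6951 CPM in Chat-pos, against 4393, 5930, 5425 and 5654 CPM in Chat-neg, each in the order of replicates 1 to 4. These groups did not overlap, which with COX1 and CYTB made 3 members whose CPM were all higher in Chat-pos and 0 whose CPM were all lower, where 6.37% of all genes tested were all higher and 7.02% all lower. The ND4 difference did not pass (0.58 ± 0.20, edgeR adjusted p = 0.0829). It passed in DESeq2 (0.65, adjusted p = 0.0122), in limma-voom (0.56, adjusted p = 0.0326) and, in edgeR, without Chat-neg replicate 1 (0.52, adjusted p = 0.029).

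ND1, the subunit that forms part of the quinone-binding channel, stood at 8054, 12624, 10939 and 9997 CPM in the Chat-pos libraries, against 8227, 8543, 8389 and 7761 CPM in those of Chat-neg replicates 1 to 4. Chat-pos replicate 1 lay inside the Chat-neg range, and the difference did not pass (0.42 ± 0.20, edgeR adjusted p = 0.224). ND2, one of the proton-pumping subunits, stood at 3879, 4777, 4704 and 3671 CPM in the Chat-pos libraries, against 5317, 3991, 3779 and 3109 CPM in those of Chat-neg, and the groups overlapped (0.16 ± 0.21, edgeR adjusted p = 0.736).

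ND5, another proton-pumping subunit, stood at 3142, 4148, 4132 and 3270 CPM in the Chat-pos libraries, against 7234, 2992, 2628 and 2119 CPM in those of Chat-neg. Every Chat-neg library except replicate 1 was below every Chat-pos library, and that replicate was above all others. The difference was 0.06 ± 0.34 with all libraries (edgeR adjusted p = 0.953) and 0.61 ± 0.16 without Chat-neg replicate 1 (edgeR adjusted p = 0.0216). That library had 87642 counts in named genes, the fewest of the 8, and 88.4% of its counts in rows with no gene name. With every library thinned to that total, the ND5 difference was -0.36 ± 0.56 (edgeR adjusted p = 0.708).

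ND6 is the message from the other strand. These libraries do not mark strand, so reads of RNA from either strand can count towards the whole ND6 row. How much each strand gave was not tested. The ND6 row stood at 1354, 1559, 1325 and 1153 CPM in the Chat-pos libraries, against 2179, 1588, 1359 and 1423 CPM in those of Chat-neg. The groups overlapped and the difference did not pass (-0.19 ± 0.21, edgeR adjusted p = 0.68). Of the low members tested, ND3 had 27, 33, 30 and 30 counts in Chat-pos and 0, 6, 16 and 12 counts in Chat-neg (0.21 ± 0.45, edgeR adjusted p = 0.841). COX2 had 10, 18, 25 and 21 counts in Chat-pos and 2, 4, 13 and 6 counts in Chat-neg (-0.14 ± 0.52, edgeR adjusted p = 0.922).

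The 4 members that were not tested had even fewer counts. COX3 had 10, 17, 16 and 11 counts in Chat-pos and 0, 3, 9 and 3 counts in Chat-neg. ATP6 had 8, 4, 12 and 10 counts in Chat-pos and 0, 5, 4 and 1 counts in Chat-neg. ND4L had 1 count in each of Chat-pos replicates 1, 2 and 3, ATP8 had 1 count in each of Chat-pos replicates 1 and 2, and both were at 0 in all Chat-neg libraries. A count of 0 in Chat-neg replicate 1 allows a level of up to 34.2 CPM, where 3 counts set the limit, and that is above the level of each low member in every Chat-pos library.

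**Figure D3:**
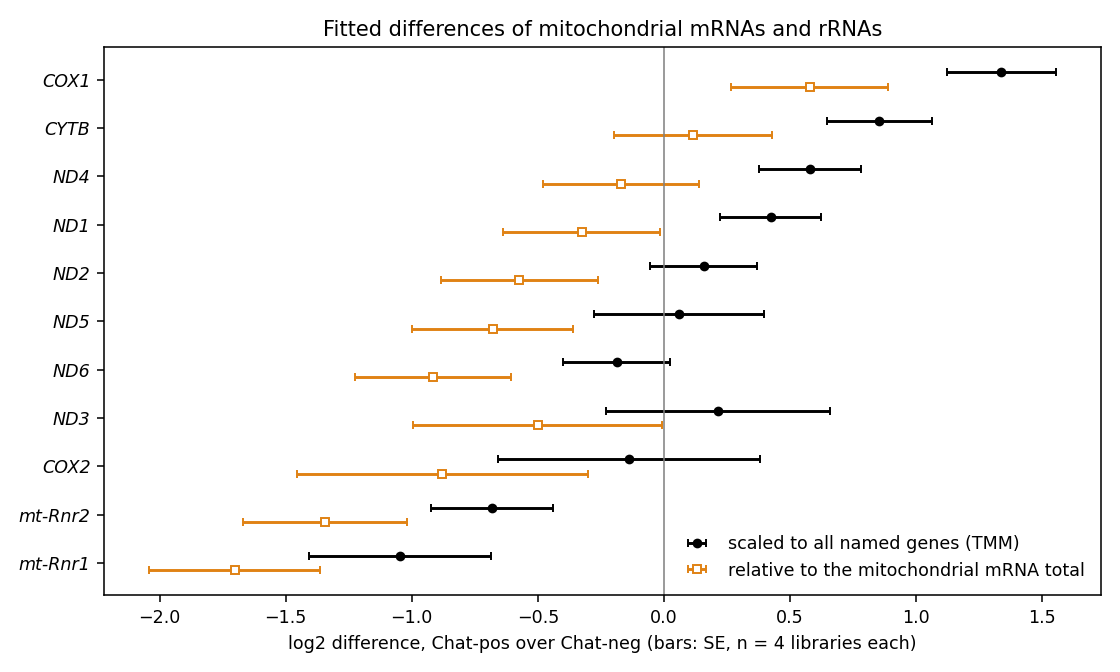
Log2 difference of Chat-pos over Chat-neg (horizontal axis, bars are SE, n = 4 libraries each) for the 9 messages tested and the 2 ribosomal RNAs, scaled to all named genes (black) and relative to the mitochondrial mRNA total (open squares). COX1 lies at 1.34 and 0.58, ND6 at -0.19 and -0.92, and the ribosomal RNAs mt-Rnr2 and mt-Rnr1 below 0 on both scales.

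The shares of some messages in the mitochondrial mRNA total did not overlap between the groups. COX1 made up 24.8%, 29.3%, 30.8% and 28.9% of the mitochondrial mRNA counts in Chat-pos replicates 1 to 4, against 16.6%, 19.3%, 20.7% and 19.7% in Chat-neg replicates 1 to 4. The groups did not overlap, with means of 28.5% ± 2.56 in Chat-pos and 19.1% ± 1.79 in Chat-neg (SD, n = 4 each). Counting error alone was smaller than this gap: the 95% Wilson interval of the COX1 share was 24.6% to 25.1% in Chat-pos replicate 1 and 20.4% to 21.1% in Chat-neg replicate 3, the closest pair. COX1 was the single member whose share was higher in every Chat-pos library than in any Chat-neg library, where 0.471% of all genes tested were that way relative to the mitochondrial total.

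The CYTB share was 36.2%, 34.7%, 35.4% and 35.4% in Chat-pos and 25.5%, 33.6%, 37.9% and 33.8% in Chat-neg replicates 1 to 4. It overlapped between the groups, with a spread of 0.646 percentage points in Chat-pos and 5.19 in Chat-neg (SD, n = 4 each). ND4 also overlapped, at 9.32% to 10.8% in Chat-pos and 9.30% to 13.1% in Chat-neg. The other complex I messages took smaller shares in Chat-pos. ND1 made up 13.8%, 14.3%, 12.7% and 14.2% in Chat-pos against 17.4%, 17.4%, 16.1% and 17.9% in Chat-neg. ND2 made up 6.63%, 5.39%, 5.44% and 5.23% in Chat-pos against 11.3%, 8.15%, 7.23% and 7.18% in Chat-neg. ND6 made up 2.31%, 1.76%, 1.53% and 1.64% in Chat-pos against 4.61%, 3.24%, 2.60% and 3.29% in Chat-neg. Each of these 3 was lower in every Chat-pos library than in any Chat-neg library, where 25.3% of all genes tested were lower that way. ND5 overlapped, at 4.66% to 5.37% in Chat-pos and 4.89% to 15.3% in Chat-neg. Shares of 1 total are tied to each other, so a larger COX1 share leaves less for the rest.

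**Figure D4:**
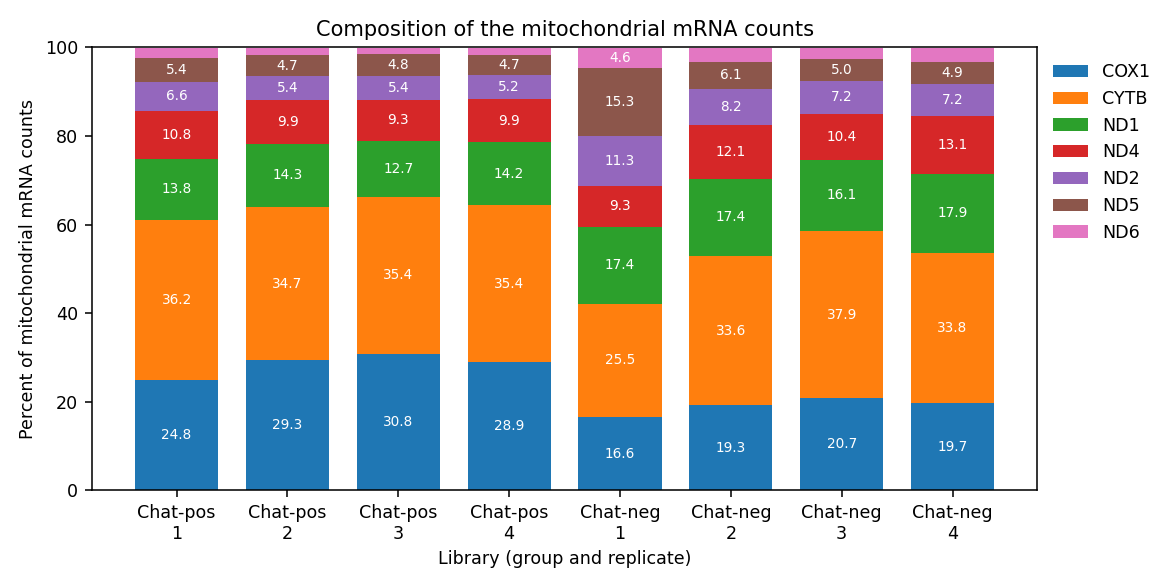
Percent of the mitochondrial mRNA counts (vertical axis) taken by each of the 7 abundant messages in the 8 libraries, 4 Chat-pos libraries on the left and 4 Chat-neg libraries on the right. COX1 takes 24.8% to 30.8% in Chat-pos and 16.6% to 20.7% in Chat-neg, and ND5 takes 15.3% in Chat-neg replicate 1.

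A second fit took the mitochondrial mRNA total as the library size and asked which messages moved more or less than that total. COX1 was higher by 0.58 ± 0.31 on the log2 scale without passing (edgeR adjusted p = 0.128), and DESeq2 with the same scaling called it (0.58, adjusted p = 0.00755). The ND6 row, which does not separate the strands, fell by 0.92 ± 0.31 relative to the total (edgeR adjusted p = 0.0159). It was the single member called in that fit. Of all genes tested, 35.6% fell and 0.392% rose on this scale, with a median of -0.74, so ND6 was lower along with many nuclear genes. The ND6 call was lost when COX1 was taken out of the total (-0.74, edgeR adjusted p = 0.0586), without the Paneth-rich libraries (-0.79, edgeR adjusted p = 0.123), and without Chat-pos replicate 3 (adjusted p = 0.0531) or Chat-pos replicate 4 (0.0515) alone. ND5 (-0.68 ± 0.32, adjusted p = 0.0812), ND2 (-0.57 ± 0.31, 0.13), ND1 (-0.33 ± 0.31, 0.388) and CYTB (0.11 ± 0.31, 0.77) did not pass in edgeR.

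Ratios between members do not depend on the scaling. There were 0.686, 0.846, 0.871 and 0.818 COX1 counts per CYTB count in Chat-pos replicates 1 to 4, against 0.650, 0.572, 0.548 and 0.584 in Chat-neg replicates 1 to 4. The COX1 to ND5 ratio was 4.63, 6.26, 6.45 and 6.22 in Chat-pos, against 1.08, 3.15, 4.12 and 4.04 in Chat-neg. Neither ratio overlapped between the groups. How many gene pairs overlap in this way was not computed, and both ratios use COX1, the member that differed most. The COX1 to CYTB gap was narrow, at 0.650 in Chat-neg replicate 1 against 0.686 in Chat-pos replicate 1. The value in Chat-neg replicate 1 rested on 686 COX1 and 1056 CYTB counts, and the counting error of the ratios was not computed. Chat-pos replicate 1 had the lowest value of its group in both.

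Per kb of gene, the order of the abundant messages was headed by CYTB in both groups. In Chat-pos the mean levels per kb were 23459 CPM for CYTB, 14157 CPM for COX1, 10871 CPM for ND1, 5460 CPM for ND4, 4102 CPM for ND2, 2597 CPM for ND6 and 2014 CPM for ND5. In Chat-neg they were 13756 CPM for CYTB, 8600 CPM for ND1, 5929 CPM for COX1, 3901 CPM for ND2, 3883 CPM for ND4, 3155 CPM for ND6 and 2052 CPM for ND5. COX1 and ND1 changed places between the groups: COX1 was above ND1 in 4 of 4 Chat-pos libraries, with overlapping ranges over libraries, and ND1 was above COX1 in 4 of 4 Chat-neg libraries, with ranges that did not overlap. Neighbours whose ranges overlapped were ND4 and ND2, and ND6 and ND5, in both groups, and in Chat-neg also COX1 and ND2, and ND4 and ND6.

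This order depends on how the covered part of each gene is treated. Counting 1000 windows with no identical nuclear copy in place of 1 kb, CYTB and COX1 stood at 25058 and 24884 CPM in Chat-pos, with CYTB higher in 2 of 4 libraries. The same 2 genes stood at 14694 and 10421 CPM in Chat-neg, where ND4 came between them at 10658 CPM and the ranges of COX1 and ND1 overlapped. On this scale ND4 was above ND1 in both groups, at 14989 against 11769 CPM in Chat-pos and 10658 against 9310 CPM in Chat-neg. The differences between Chat-pos and Chat-neg of each gene do not depend on this choice.

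The ribosomal RNAs of the mitochondrion, which share the heavy strand and its precursor with most of the messages, did not follow them. The small subunit RNA mt-Rnr1 stood at 7806, 4452, 5331 and 4151 CPM in the Chat-pos libraries, against 20584, 11742, 9532 and 5808 CPM in those of Chat-neg replicates 1 to 4 (-1.05 ± 0.36, edgeR adjusted p = 0.124). The large subunit RNA mt-Rnr2 stood at 26502, 16610, 17768 and 15138 CPM in the Chat-pos libraries, against 46108, 33497, 29540 and 20416 CPM in those of Chat-neg (-0.68 ± 0.24, edgeR adjusted p = 0.0899). Both overlapped between the groups, and neither passed. Without Chat-pos replicate 1 both passed (mt-Rnr1 -1.29, edgeR adjusted p = 0.0423; mt-Rnr2 -0.90, 0.0332), and without Chat-neg replicate 4 mt-Rnr1 passed (-1.23, 0.00775), as it did with the replicate number as a block (-0.94, 0.0311).

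The mRNA counts were also set against the ribosomal RNA counts. There were 1.71, 4.21, 3.74 and 3.64 mitochondrial mRNA counts per ribosomal RNA count in Chat-pos replicates 1 to 4. In Chat-neg replicates 1 to 4 there were 0.708, 1.08, 1.34 and 1.65, with no overlap and a narrow gap. Relative to the mRNA total, 25.3% of all genes tested were lower in every Chat-pos library than in any Chat-neg library. How the library preparation captures ribosomal, transfer and messenger RNA was not tested, so these are ratios of counts. Relative to the mRNA total, mt-Rnr1 fell by 1.70 ± 0.34 (edgeR adjusted p = 7.67e-05) and mt-Rnr2 fell by 1.35 ± 0.33 (edgeR adjusted p = 0.00091), on a scale where 35.6% of all genes tested fell and the median was -0.74. The mt-Rnr2 call was lost without the Paneth-rich libraries (-1.01, edgeR adjusted p = 0.0804). These p-values relative to the mRNA total come from the second fit and share its limit. Mitochondrial transfer RNAs took 0.0126% to 0.0265% of the named-gene counts in Chat-pos and 0.0306% to 0.0947% in Chat-neg, and this summed share did not overlap, where 7.02% of all genes tested did not overlap in this direction. Of their 22 rows 6 were at 0 in every library and 8 were tested. Of these, the rows of mt-Tq (-1.45 ± 0.25, edgeR adjusted p = 0.000528) and mt-Tp (-0.92 ± 0.26, edgeR adjusted p = 0.0284) fell, where 2.87% of all genes tested fell. Reads of RNA from either strand can count towards these rows. Whether they came from mature transfer RNA or from longer precursors was not tested. The mt-Tp call was lost without the Paneth-rich libraries (-0.63, adjusted p = 0.338) and without any single library other than Chat-pos replicate 1 or Chat-neg replicate 1 (-0.99 to -0.79, adjusted p 0.0511 to 0.133). Chat-pos replicate 1 had the highest ribosomal and transfer RNA of its group, and Chat-neg replicate 1 had the highest of all 8.

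The nuclear-encoded partners of these subunits did not rise with COX1 and CYTB. Of 74 nuclear-encoded genes of complexes I, III, IV and V tested, 0 rose and 18 fell, where 2.87% of all genes tested fell. The 74 are called subunits here for short. Both the 74 and the 18 include Atpif1, an inhibitor of the synthase and not a subunit. The log2 difference was below 0 for 66 of these 74, with a median of -0.40. Among all 8919 genes tested it was below 0 for 4591, with a median of -0.02. The 18 that fell depend on the Paneth-rich libraries and on the scaling. Without these libraries 1 fell (Ndufa4), with a median of -0.18 against 0.05 over all genes tested, and with all rows as the library size 0 fell, with a median of 0.08 against 0.42 over all genes tested. Leaving out 1 library gave 6 to 32 that fell: 7 without Chat-pos replicate 2, Chat-pos replicate 3 or Chat-neg replicate 4, 6 without Chat-neg replicate 2 or 3, and 32 without Chat-neg replicate 1. Among those named here, Ndufa4, Cox7c, Ndufc1, Ndufa5 and Atp5k kept their calls whichever 1 library was left out. Cox6c lost its call without any single library other than Chat-pos replicate 1 or Chat-neg replicate 1, Cyc1 without any other than Chat-pos replicate 4 or Chat-neg replicate 1, and Ndufb4 without any other than Chat-pos replicate 1, Chat-pos replicate 4 or Chat-neg replicate 1. Atpif1 lost its call without Chat-neg replicate 2 and Atp5g1 without Chat-neg replicate 3.

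In complex IV, where COX1 rose, 3 of 11 nuclear-encoded subunits fell. These were Ndufa4 (-1.27 ± 0.21, edgeR adjusted p = 0.000451), Cox7c (-0.91 ± 0.20, 0.00536) and Cox6c (-0.75 ± 0.22, 0.0402). Cox4i1, the regulatory subunit that contacts COX1, stood at 1225 ± 181 CPM in the Chat-pos libraries, against 1927 ± 381 CPM in those of Chat-neg (SD, n = 4 each) and did not pass (-0.57 ± 0.21, edgeR adjusted p = 0.106). The list median was -0.48.

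In complex III, where CYTB rose, 1 of 9 fell, Cyc1, which encodes cytochrome c1 (-0.72 ± 0.21, edgeR adjusted p = 0.0358). Uqcrc1, a core subunit on the matrix side, did not pass (-0.19 ± 0.22, edgeR adjusted p = 0.693), and the list median was -0.42. In complex I, 7 of 36 fell, with the smallest p for Ndufc1 (-1.26 ± 0.21), Ndufa5 (275 ± 35.7 CPM in the Chat-pos libraries, against 580 ± 109 CPM in those of Chat-neg) and Ndufb4 (-0.85 ± 0.21), and a median of -0.27. Ndufs1, an iron-sulfur subunit that carries electrons, did not pass (-0.11 ± 0.21, edgeR adjusted p = 0.817). In complex V, 7 of 18 fell, led by Atp5k (-1.31 ± 0.23), Atpif1 (-0.97 ± 0.21), an inhibitor of the synthase, and Atp5g1 (-0.93 ± 0.22), and the median was -0.58. Atp5b, the catalytic beta subunit, did not pass (-0.28 ± 0.21, edgeR adjusted p = 0.508).

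**Figure D5:**
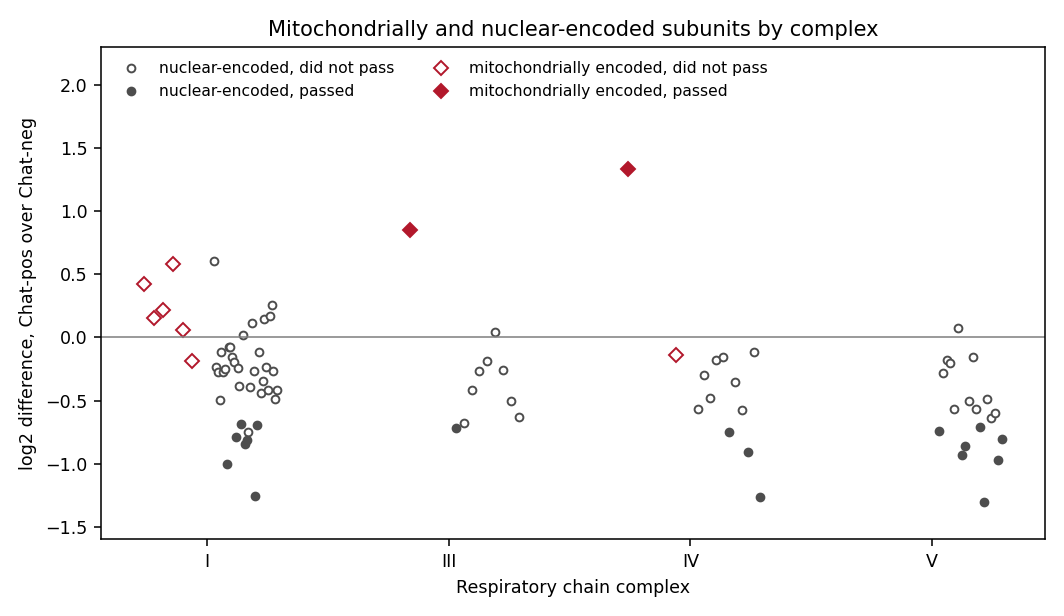
Log2 difference of Chat-pos over Chat-neg (vertical axis) for mitochondrially encoded (diamonds) and nuclear-encoded subunits (circles) of complexes I, III, IV and V. Points are filled where the adjusted p of the edgeR test was under 0.05, and the circles of complex V include the inhibitor Atpif1. COX1 at 1.34 and CYTB at 0.85 are the filled diamonds, and all 18 filled circles lie below 0.

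Of 30 genes that make, process and protect mitochondrial RNA, 20 passed the filter, 0 rose and 1 fell, with a median of -0.28. Across all genes tested 3.62% rose and 2.87% fell, so this share was near the background. The one that fell was Lrpprc, a partner of SLIRP that stabilises mitochondrial messages. It stood at 13.1, 16.3, 6.85 and 14.2 CPM in the Chat-pos libraries, against 79.9, 24.2, 26.3 and 39.3 CPM in those of Chat-neg replicates 1 to 4 (-1.33 ± 0.39, edgeR adjusted p = 0.0344), and the highest of these rested on 7 counts. The Lrpprc call was lost without the Paneth-rich libraries (adjusted p = 0.188) and without any single library other than Chat-pos replicate 2 (-1.49 to -1.08, adjusted p 0.0521 to 0.117). Polrmt, the mitochondrial RNA polymerase, was not tested. It stood at 5.12, 6.70, 4.57 and 7.08 CPM in the Chat-pos libraries, against 57.1, 26.8, 5.10 and 4.91 CPM in those of Chat-neg replicates 1 to 4, with 5 counts behind the highest value. Slirp, with 3 to 9 counts in Chat-pos and 0 to 9 in Chat-neg, was not tested either. Tfam, which packages mitochondrial DNA and starts its transcription (-0.29 ± 0.36, edgeR adjusted p = 0.711), and Mtpap, the mitochondrial poly(A) polymerase (0.51 ± 0.44, 0.565), did not pass.

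Genes of mitochondrial DNA maintenance (8 of 13 tested, median 0.04) and regulators of mitochondrial biogenesis (8 of 10 tested, median -0.06) had 0 that rose and 0 that fell by edgeR, and 1 and 0 at an unadjusted p under 0.05. Among all genes tested 6.49% were called in either direction, and 0 of 8 cannot be told apart from that share. At the unadjusted limit, 974 of the 8919 genes tested were higher and 881 lower. Among the regulators, Ppargc1a, a coactivator of mitochondrial genes, differed by -0.65 ± 0.62 (edgeR adjusted p = 0.609), and Nrf1, a transcription factor for nuclear respiratory genes, by 0.39 ± 0.38 (edgeR adjusted p = 0.617).

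The genes whose levels lay closest to COX1 over the 8 libraries were sought among the 1374 genes that averaged 100 CPM or more. The measure was the root mean square difference of log2 CPM, centred over all 8 libraries. A gene with a similar difference between Chat-pos and Chat-neg therefore lies close by construction. The log2 differences of the 5 closest genes were 0.87 to 1.65 for COX1 and 0.63 to 0.87 for CYTB. CYTB stood at 0.252 from COX1. The 5 closest genes outside the mitochondrial genome were H2-T23, a non-classical class I histocompatibility gene, at 0.211, the GTPase Hras at 0.235, Reep5, which shapes the endoplasmic reticulum, at 0.247, the kinase Plk2 at 0.252 and Sh2d7 at 0.260, where the median over the 1374 genes was 0.684. For CYTB the 5 closest were Hras at 0.114, Arpc1b, a subunit of the actin-branching Arp2/3 complex, at 0.147, the cell surface protein Bsg at 0.162, the receptor Cd300lf at 0.164 and Rassf7 at 0.164, where the median was 0.484. Within the genome, ND4 stood at 0.202, COX1 at 0.252 and ND1 at 0.291 from CYTB. H2-T23 belongs to a family of near-identical genes. Exons of Arpc1b, Atpif1, Cox4i1, Cox6c, Mtpap, Ndufs1, Sh2d7 and Slirp overlap those of another annotated gene (GENCODE M21), so the counts of these 9 genes are uncertain.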

How the data were processed

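RNA from 8 bulk libraries of sorted tuft cells was reverse transcribed and amplified with SMARTer v4, turned into libraries with Nextera XT and sequenced as single reads of 74 cycles, per the labels' protocols. The authors deposited 1 table of raw counts by gene symbol. Reads were placed on GRCm38, a build named in the submitters' processing notes, and the sources used here do not give the aligner, the counting rule or the annotation. These libraries mark no strand and carry no molecular identifiers, so intervals and limits cover counting error only.

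Of 53806 rows, 36 had no gene name and were kept out of library sizes. They held 58.6% to 64.6% of all counts in Chat-pos and 67.8% to 88.4% in Chat-neg. Of these 36 rows, 4 had 1000 or more counts over all libraries, and whether they are genes was not examined. Counts of 229 rows with repeated symbols were summed. CPM are counts per 1000000 named-gene counts. The test was edgeR 4.0.16 under R 4.3.3 (TMM, filterByExpr, robust quasi-likelihood fit, group as the only term, Benjamini-Hochberg threshold 0.05), which was also tested on simulated data. Standard errors were taken from the log2 difference and its F statistic. The second fit set the library size to the mitochondrial mRNA total. Nuclear copies were sought with blastn 2.17.0 in GENCODE M21 transcripts (alignments of at least 60 bases and 85% identity), and coordinates came from RefSeq on GRCm38.p6. Intervals are Wilson at 95%.

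Tried as alternatives were scaling by RLE, by upper quartile, by the total count and without mitochondrial genes, all rows as library size, no filter, at least 5 CPM in 4 libraries as the filter, DESeq2 1.42.0, limma-voom (limma 3.58.1), a replicate block, thinning to the shallowest library and leaving out each library. Leaving out both Paneth-rich libraries, and the nuclear-encoded subunits, Lrpprc, transfer RNAs and ribosomal RNAs under all of these, were added after seeing the data. The members and gene lists were chosen with earlier results of these data known. All 13 members are named. From each gene list the called members are named if 6 or fewer, otherwise the 3 with the smallest p, with 10 others picked for their role. The 5 genes closest to COX1 and to CYTB are named by the root mean square difference of log2 CPM (prior count 2). Ribosomal RNAs, transfer RNAs and pseudogenes were added with their values known.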

Additional observations from a re-analysis of the deposited data

Results flagged for a closer look

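Among 34 sets of 4 libraries (the levels and shares of the 7 abundant messages, and 3 library measures), 3 had a library far from the other 3, and chance alone gives about 1 in 20. ND5 stood at 7234 CPM in Chat-neg replicate 1, against 2119 to 2992 CPM in the other Chat-neg libraries. Its share of the mitochondrial mRNA counts was 15.3% there (634 of 4141 counts, 95% Wilson interval 14.2% to 16.4%), against 4.89% to 6.11% in the other 3. ND2 made up 6.63% of the mitochondrial mRNA counts in Chat-pos replicate 1 (95% Wilson interval 6.48% to 6.78%), against 5.23% to 5.44% in the other Chat-pos libraries.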

How the results depend on the processing

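COX1 rose under all 20 alternatives (1.12 to 1.83, adjusted p at most 0.0189), among them with all libraries thinned to the shallowest (1.12), and CYTB under 15 of 20. Members that rose, 2 with all libraries, were 1 with all rows as library size, 1 without both Paneth-rich libraries and 1 to 4 when 1 library was left out, and 0 fell under any of the 20. CYTB lost its call with all rows as library size (1.32, adjusted p = 0.0979). ND5 and ND4 joined without Chat-neg replicate 1. Signs turned for ND5 (-0.045 with upper-quartile scaling, -0.019 with total count scaling, -0.36 thinned, -0.016 without the Paneth-rich libraries, -0.093 to 0.61 when 1 library was left out), ND2 (-0.12 thinned), ND6 (0.42 with all rows, 0.10 unfiltered), COX2 (0.27 with all rows, 0.052 unfiltered, -0.41 to 0.018 when 1 library was left out), and for ND4 relative to a mitochondrial total without COX1 (0.0057), none of the values with a turned sign called; the cause was not tested. Relative to the mitochondrial total, 1 rose and 2 fell in DESeq2. There 0 fell in edgeR with a total without COX1, 0 without the Paneth-rich libraries, and 0 to 1 when 1 library was left out (0 without Chat-pos replicate 3 or 4).

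All genes called higher (323) became 547 in DESeq2, 120 thinned and 138 to 360 when 1 library was left out. All genes called lower (256) became 31 with all rows, 143 unfiltered, 418 in DESeq2, 402 in limma-voom, 133 thinned, 86 without the Paneth-rich libraries and 110 to 309 when 1 library was left out. Nuclear-encoded subunits called lower (18) became 0 with all rows, 3 unfiltered, 30 thinned, 1 without the Paneth-rich libraries and 6 to 32 when 1 library was left out, and 1 was called higher in DESeq2 and 1 when thinned, against 0. With all rows as denominator the mean mitochondrial share was 2.86% in Chat-pos and 1.18% in Chat-neg. All rows as library size moved the median of all genes to 0.42. The replicate numbers are not said to pair samples, and same-numbered libraries did not deviate together (correlations 0.053, 0.033, -0.023 and -0.010); with the replicate number as a block COX1 (1.31) and CYTB (0.86) kept their calls, 290 genes rose and 230 fell. Depth limits the Chat-neg side: Chat-neg replicate 1 had 4141 mitochondrial mRNA counts, which gives intervals of up to 1.33 percentage points on either side of a share.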
